A study of Homo sapiens with 11 samples.

Results

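The autophagy machinery and the lysosomal enzymes and membrane proteins were examined as a set of 37 genes in HCT116, an established human colorectal carcinoma line that the labels describe as epithelial and RAS-mutant. Members were taken by gene symbol: 25 genes of autophagosome formation and its regulation and 12 genes of the lysosome. All 37 were found, with 1 row each, among the 61464 rows of the deposited count table, and 36 of the 17963 genes that passed the filter on low counts were members. Cells were exposed for 48 h to DMSO, the solvent control, to GTEA1 or to GTEA7, both triterpenoid extracts of Ganoderma, a medicinal fungus. The labels give no dose and no composition for either extract. Poly(A)-selected RNA was sequenced in 3 DMSO, 4 GTEA1 and 4 GTEA7 libraries, and all groups share the same cell line and time.

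Autophagy encloses cytoplasmic cargo in a double membrane, the autophagosome, which then fuses with the lysosome so that acid hydrolases can degrade what was enclosed. The ULK1 kinase complex starts the process, a phosphatidylinositol 3-kinase complex and its effectors build the membrane, and a pair of ubiquitin-like conjugation systems attach ATG8 proteins to lipid. Cargo receptors bridge ubiquitinated cargo and ATG8 proteins, and the MiT/TFE transcription factors drive many lysosomal genes when nutrient signalling through mTORC1 is low. Transcript levels alone do not measure the rate at which cargo is degraded.

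Library totals ran from 13742326 to 19304211 counts. Mitochondrially encoded transcripts took 13.3 to 15.1% of counts in the DMSO libraries, 12.5 to 13.6% with GTEA1 and 15.0 to 15.3% with GTEA7. Of 10 epithelial and colonic markers, 8 passed 1 CPM in at least 1 library, while the intestinal markers CDX1 and VIL1 did not, and CDX1 was at 0 in all 11 libraries. The labels do not say whether replicates were separate cultures, so p-values measure only the spread between these libraries, which may be technical. In RNA from a whole culture, fewer cells of a kind and less RNA per cell cannot be told apart. Levels below are CPM, each gene's counts relative to the library total after scaling by TMM factors, and a change is called at an adjusted p under 0.05 (edgeR quasi-likelihood F test, Benjamini-Hochberg over all genes tested). Errors of CPM are SD over libraries and errors of log2 fold changes are SE.

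With GTEA1, most of the tested autophagy members rose, and lysosomal members were called in both directions. Of the 36 tested members, 23 (63.9%) rose and 6 (16.7%) fell against DMSO, and 35.6% of all tested genes rose and 36.2% fell. The median log2 change was 0.34 over the members and -0.0078 over all tested genes. Among the 24 tested autophagy members, 19 rose and only ULK1 fell, with a median of 0.52. Among the 12 lysosomal members, 4 rose (33.3%) and 5 fell (41.7%), near the shares over all tested genes, with a median of -0.05. The difference between these subsets was not tested. In 7 members the level was at least 2-fold higher: CTSL, SQSTM1, ATG12, MAP1LC3B, TFE3, WIPI1 and NBR1. By GENCODE v29 (GRCh38), CTSL spans chr9:87725519-87731392 and MAP1LC3B chr16:87391800-87404779 on the plus strand, as does SQSTM1 at chr5:179820759-179838078, and ATG12 spans chr5:115828200-115841858 on the minus strand. No member was at least 2-fold lower, against 8.56% of all tested genes at least 2-fold higher and 12.4% at least 2-fold lower. With scaling by library totals alone the median of all genes moved to -0.167, and 4828 of all tested genes rose and 8179 fell in place of 6390 and 6505. On that scale 20 members were called higher, without BECN1, ATG14 and GAA, and 10 lower, with TFEB, HEXA, WIPI2 and LAMP2 added.

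GTEA7 moved far fewer members, and by smaller amounts. Against DMSO, 8 of 36 rose and 2 fell, beside 12% and 10.4% of all tested genes, and the median was 0.06 over the members and -0.0087 over all tested genes. No member reached a 2-fold change in either direction, beside 0.295% of all tested genes at least 2-fold higher and 0.284% at least 2-fold lower. Scaled by library totals alone, 1255 of all tested genes rose and 2954 fell with GTEA7, in place of 2159 and 1877, and 5 members rose. The calls lost there, for MAP1LC3B, GABARAPL2 and LAMP2, were also the ones lost without DMSO replicate 2. Members together took 0.208 to 0.215% of all counts in the DMSO libraries, 0.346 to 0.367% with GTEA1 and 0.210 to 0.216% with GTEA7. These shares are relative to raw library totals, that is, scaled by totals alone and not by TMM. The GTEA1 share lay above that of every other library, and the GTEA7 and DMSO ranges overlapped.

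**Figure D1:**
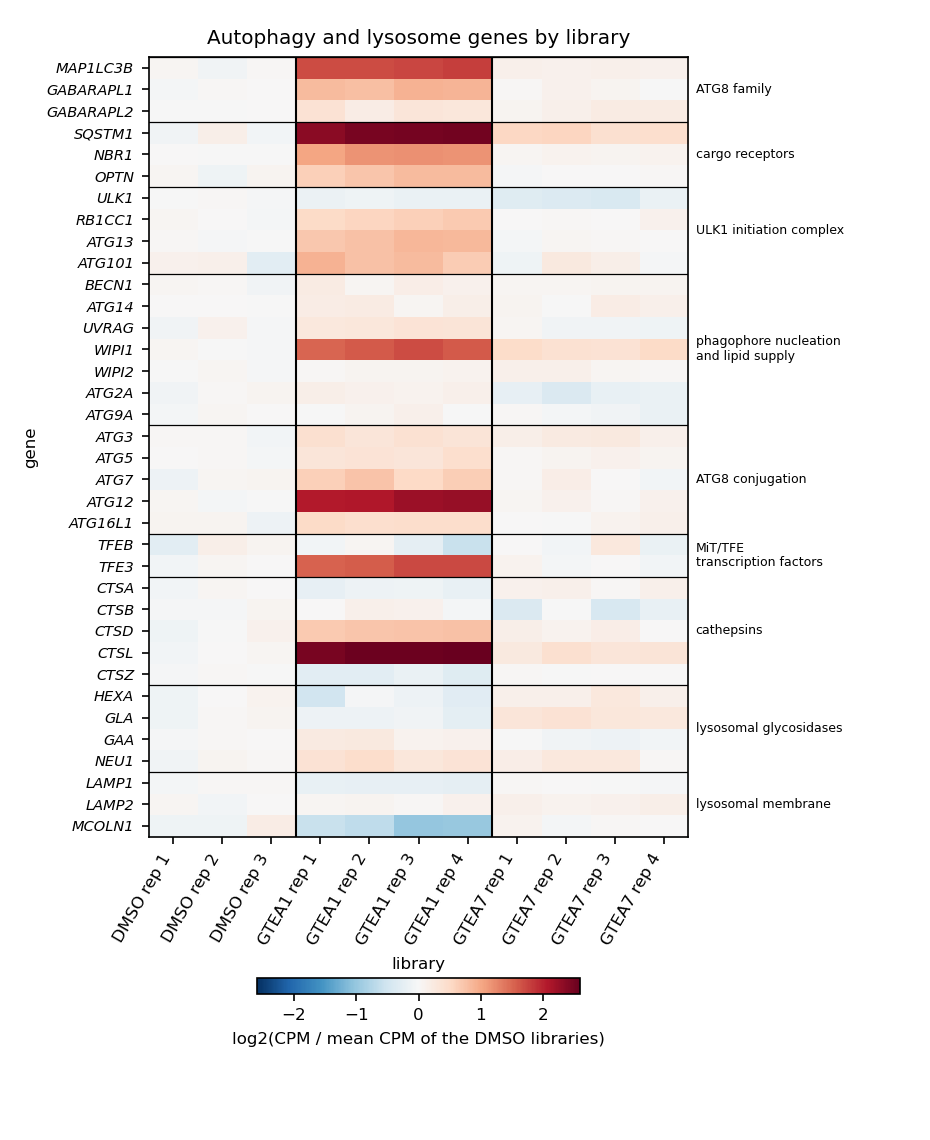
Heat map of the 36 tested genes (rows, grouped by role) in the 11 libraries (columns), coloured by log2 of the library's CPM over the mean CPM of the DMSO libraries. The deepest red rows are CTSL, SQSTM1, ATG12, MAP1LC3B, TFE3 and WIPI1 in the 4 GTEA1 libraries, MCOLN1 is the bluest row there, and the GTEA7 columns are pale by comparison.

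Promoter letters, which the counts did not use, were compared next. The 250 bases before the RefSeq transcription start (GRCh38.p14) were available for 32 members in 40 windows. They were searched on both strands for CACGTG, the E-box, for TCACGTGA, the extended E-box recognised by MiT/TFE factors in lysosomal promoters, for TGATGCAA, the core of the composite element bound by CHOP with ATF4, and for TGACNNNGC, the antioxidant response core. Every TCACGTGA match also counts as a CACGTG match. Because TCACGTGA is known from lysosomal promoters, its share among the members is not independent of their choice, nor is that of the E-box. Shown are the windows of WIPI1, which rose with GTEA1 and holds none of these motifs, and of GAA, LAMP1 and MCOLN1, which hold TCACGTGA. None of these windows overlaps a GENCODE v29 exon of its gene, unlike 23 of the 40 windows, among them those of CTSL, ATG12 and MAP1LC3B. Sequences run 5′ to 3′ towards the start, and capitals mark motif matches.
WIPI1 (chr17:68457497-68457746, minus strand): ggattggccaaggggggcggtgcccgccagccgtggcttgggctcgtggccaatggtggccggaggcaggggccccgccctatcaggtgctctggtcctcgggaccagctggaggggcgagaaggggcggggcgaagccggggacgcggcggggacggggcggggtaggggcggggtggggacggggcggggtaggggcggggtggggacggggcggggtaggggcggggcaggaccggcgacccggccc
GAA (chr17:80101331-80101580, plus strand): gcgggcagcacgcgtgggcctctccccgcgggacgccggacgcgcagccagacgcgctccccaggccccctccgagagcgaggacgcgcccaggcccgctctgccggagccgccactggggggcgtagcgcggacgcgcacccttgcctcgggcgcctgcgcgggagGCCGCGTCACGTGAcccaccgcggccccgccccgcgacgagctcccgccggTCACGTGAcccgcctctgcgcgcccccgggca
LAMP1 (chr13:113296989-113297238, plus strand): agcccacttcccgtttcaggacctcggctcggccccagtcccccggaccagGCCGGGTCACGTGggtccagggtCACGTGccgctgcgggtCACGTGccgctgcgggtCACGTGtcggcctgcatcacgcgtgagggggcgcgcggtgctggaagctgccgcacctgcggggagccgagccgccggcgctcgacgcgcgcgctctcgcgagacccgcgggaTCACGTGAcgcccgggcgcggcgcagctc
MCOLN1 (chr19:7522374-7522623, plus strand): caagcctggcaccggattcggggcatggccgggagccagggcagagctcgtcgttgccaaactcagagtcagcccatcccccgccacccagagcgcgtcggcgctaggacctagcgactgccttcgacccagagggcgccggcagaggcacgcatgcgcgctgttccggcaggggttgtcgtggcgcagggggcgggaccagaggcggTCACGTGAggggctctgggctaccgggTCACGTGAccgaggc

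The E-box was present in 8 of the 32 members with a window (25.0%), against 7.73% of 27305 genes with windows of the same length. These were ATG14, ATG3, CTSA, CTSD, GAA, NEU1, LAMP1 and MCOLN1. TCACGTGA was present in CTSA, GAA, LAMP1 and MCOLN1, which is 12.5% of the members, against 1.04% of all genes. In MCOLN1 the matches began 42 and 15 bases before the start, and in GAA 77 and 32 bases before it. LAMP1 carried 5 E-boxes, the first beginning 192 bases and the last 28 bases before the start. None of the 7 members at least 2-fold higher with GTEA1 had an E-box in its window, beside the 7.73% of all genes. For CTSL, ATG12 and MAP1LC3B all 250 bases of the window lie in GENCODE v29 exons of the gene, and for TFE3 129 do. Those bases are not upstream of the annotated gene. The antioxidant response core was found in 8 members (25.0%), among them MAP1LC3B and CTSL, against 13.22% of all genes, and in GAA and LAMP1 one such match overlaps an E-box. TGATGCAA occurred in no member window and in 0.97% of all genes. A match is a run of letters and does not show binding, and the absence of one says only that those letters are not in the window. Median GC content was 65.8% in member windows and 58.0% in all windows.

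The ATG8 proteins coat the growing membrane and recruit cargo, and MAP1LC3B is the family member most used as an autophagosome marker. MAP1LC3B was at 98.8, 90.4 and 98.3 CPM in the DMSO libraries, at 311, 311, 318 and 332 CPM with GTEA1 and at 105, 104, 105 and 104 CPM with GTEA7. Every GTEA1 library lay more than 3-fold above every DMSO library, and the GTEA7 libraries sat just above the DMSO range without overlap. The log2 change was 1.73 ± 0.04 with GTEA1 (adjusted p = 7.22e-39) and 0.13 ± 0.04 with GTEA7 (adjusted p = 0.0138). MAP1LC3B2, a near-identical copy whose reads the counting could have shared, rose from 3.24 to 7.40 CPM with GTEA1 (log2 1.18 ± 0.14).

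GABARAPL1, another ATG8 protein, stood at 54.0, 57.5 and 56.5 CPM with DMSO, at 98.8, 96.6, 105 and 103 CPM with GTEA1 and at 57.0, 60.1, 58.9 and 55.5 CPM with GTEA7. The GTEA1 libraries were all higher and the other groups overlapped. The change with GTEA1 was 0.85 ± 0.04 on the log2 scale, and with GTEA7 0.05 with a 95% interval of -0.04 to 0.14. GABARAPL2 rose by 0.30 ± 0.05 with GTEA1 and by 0.15 ± 0.05 with GTEA7. That GTEA7 call was lost without DMSO replicate 1, 2 or 3, without GTEA7 replicate 3 or 4, and with scaling by library totals alone. GABARAP itself had only 47 counts in all 11 libraries (0.06 to 0.41 CPM) and was not tested. By GENCODE v29, 30.5% of its exon bases lie in exons of AC120057.2 on the same strand, and whether the counting set such reads aside was not tested.

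All 3 cargo receptors among the members rose with GTEA1, beside 35.6% of all tested genes. Of 19 other selective receptors, described below, 8 rose and 8 fell. SQSTM1 (p62), which carries ubiquitinated cargo to ATG8 proteins and is itself degraded with it, measured 91.2, 109 and 92.4 CPM with DMSO, 493, 535, 549 and 552 CPM with GTEA1 and 142, 143, 129 and 132 CPM with GTEA7. The groups did not overlap and fell in the order DMSO, GTEA7, GTEA1. The changes were 2.45 ± 0.06 with GTEA1 (5.46-fold, adjusted p = 7.49e-18) and 0.49 ± 0.06 with GTEA7 (1.40-fold, adjusted p = 6.92e-06), and the latter was the largest rise of any member with GTEA7. Of the SQSTM1 exon bases, 39.8% lie opposite exons of MRNIP, and without knowing whether strand was used in counting, reads of the pair cannot be told apart there. The same holds for ATG101 (42.7% opposite AC025259.1), ATG7 (32.2% opposite VGLL4), WIPI1 (28.5% opposite ARSG) and ATG12 (8.7% opposite AP3S1). In all, 13 members had such overlap, among them also CTSA (29.6%), GABARAP (25.2%) and BECN1 (23.5%). Overlap on the same strand was found for 5 members: GABARAP, ATG9A, CTSD, HEXA (10.2%) and MCOLN1 (8.4%).

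NBR1, a receptor that works beside SQSTM1, was at 118, 117 and 117 CPM with DMSO and at 240.5, 263, 267 and 262 CPM with GTEA1. All 4 GTEA1 libraries were more than 2-fold above DMSO, with a log2 change of 1.14 ± 0.04. OPTN, a receptor for mitochondria and bacteria, rose by 0.75 ± 0.05. Neither passed the threshold with GTEA7: NBR1 gave 0.07 (95% interval -0.003 to 0.15) and OPTN 0.01 (-0.10 to 0.12).

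**Figure D2:**
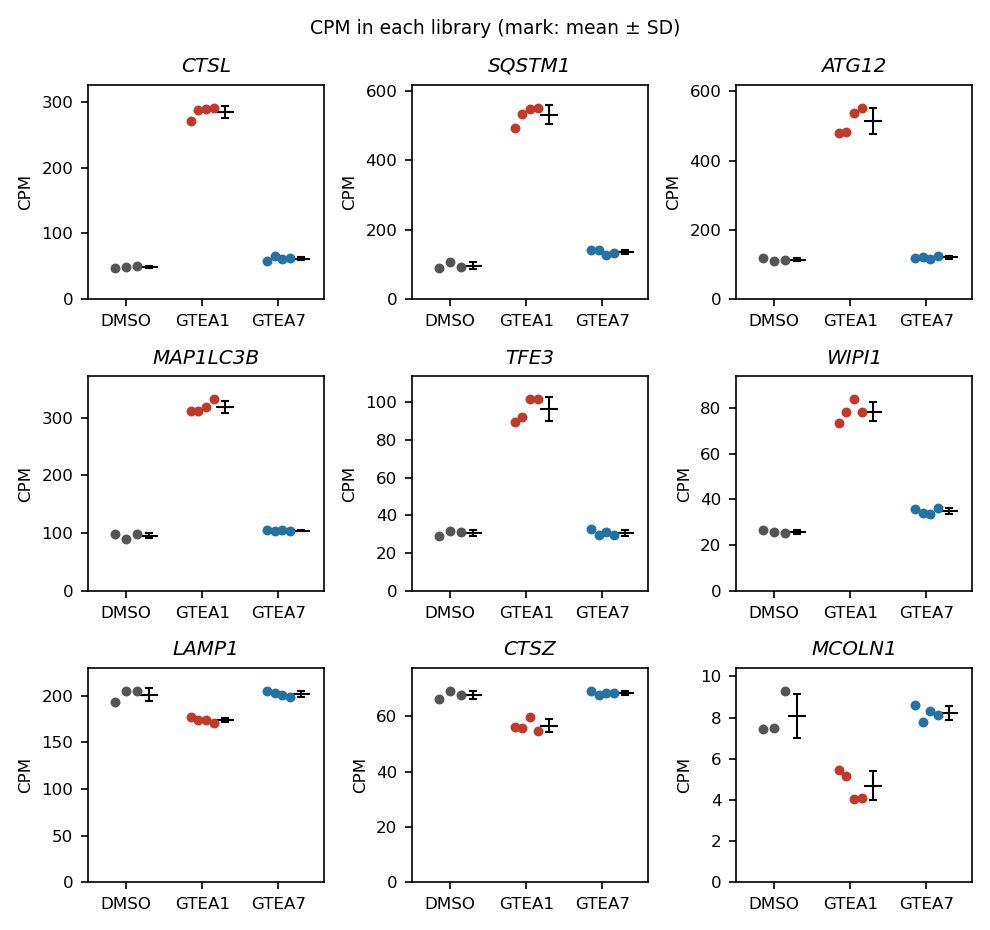
CPM in each library for 6 members that rose most with GTEA1 and 3 that fell, with group means and SD (3 DMSO, 4 GTEA1 and 4 GTEA7 libraries), each y axis starting at 0. GTEA1 points stand apart from DMSO in all 9 panels, above it for CTSL to WIPI1 and below it for LAMP1, CTSZ and MCOLN1.

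In the initiation complex the kinase fell slightly with GTEA1 while its partners rose. ULK1, the kinase that phosphorylates the downstream machinery, was at 32.5, 33.3 and 31.8 CPM with DMSO, at 29.3, 29.9, 29 and 28.9 CPM with GTEA1 and at 26.1, 25.5, 24.9 and 28.7 CPM with GTEA7. Both extracts left every library below the DMSO range. ULK1 fell by 0.15 on the log2 scale with GTEA1 (SE 0.06, adjusted p = 0.0156) and by 0.31 with GTEA7 (SE 0.06, adjusted p = 4.22e-05). The GTEA1 call of ULK1 was lost without DMSO replicate 2 (adjusted p = 0.0691) and with the DESeq2 Wald test (adjusted p = 0.0534). Its partners rose with GTEA1: the scaffold RB1CC1 (FIP200) by 0.59 ± 0.04, ATG13, which links the kinase to the scaffold, by 0.79 ± 0.04, and ATG101, which stabilises ATG13, by 0.77 ± 0.09. With GTEA7 these 3 lay between 0.01 and 0.06 and none was called.

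Genes of membrane nucleation and lipid supply mostly shifted little. WIPI1, which binds phosphatidylinositol 3-phosphate on the forming membrane, was the exception, at 26.5, 25.5 and 25.1 CPM with DMSO, 73.3, 78.1, 83.8 and 78.2 CPM with GTEA1 and 35.8, 34.0, 33.4 and 36.4 CPM with GTEA7. No library of one group reached into another, and the order was again DMSO, GTEA7, GTEA1. WIPI1 rose by 1.61 ± 0.05 with GTEA1 (adjusted p = 2.73e-31) and by 0.44 ± 0.06 with GTEA7 (adjusted p = 5.42e-08). Its relative WIPI2, which recruits ATG16L1, changed by 0.06 (95% interval -0.02 to 0.15) and 0.09 (0.007 to 0.17), neither called.

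In the phosphatidylinositol 3-kinase complex, the scaffold BECN1 rose by 0.13 ± 0.05 with GTEA1, ATG14, which directs the complex to the endoplasmic reticulum, by 0.16 ± 0.06, and UVRAG, its endosomal alternative, by 0.32 ± 0.07. Scaled by library totals alone, BECN1 gave -0.026 and ATG14 -0.0036, neither called, and the BECN1 call was also lost without DMSO replicate 3 and without GTEA1 replicate 1. With GTEA7 none of these 3 was called, with changes from -0.06 to 0.09. ATG2A, a lipid transfer protein, was at 26.9, 29.1 and 29.9 CPM with DMSO, at 24.8, 22.2, 25.0 and 25.4 CPM with GTEA7 and at 31.6, 30.9, 30.5 and 31.2 CPM with GTEA1. GTEA7 libraries all lay below DMSO and GTEA1 libraries all above it. Only the GTEA7 change was called (log2 -0.23, SE 0.06, adjusted p = 0.00288), and with GTEA1 the value was 0.12 (adjusted p = 0.0721). The scramblase ATG9A gave 0.05 and -0.07, neither called, and 43.5% of its exon bases lie in exons of AC068946.2 on the same strand.

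All 5 conjugation genes among the members rose with GTEA1, beside 35.6% of all tested genes. ATG12, the ubiquitin-like protein joined to ATG5, read 119, 111 and 114 CPM with DMSO, 480.5, 484, 538 and 554 CPM with GTEA1 and 119, 123, 117 and 125 CPM with GTEA7. The GTEA1 libraries were at least 4-fold above every DMSO library, and the GTEA7 values overlapped the DMSO values. ATG12 rose by 2.17 ± 0.04 with GTEA1 (4.49-fold, adjusted p = 7.80e-35) and gave 0.08 with GTEA7 (95% interval -0.01 to 0.17). Its partners in the same conjugate rose less: ATG5 by 0.35 ± 0.05, and ATG16L1, which places the conjugate on the membrane, by 0.45 ± 0.06. The E1-like enzyme ATG7 rose by 0.63 ± 0.07 and the E2-like enzyme ATG3 by 0.36 ± 0.05. Of these members, ATG3 alone was also called with GTEA7, at 0.19 ± 0.05 (adjusted p = 0.00393).

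The MiT/TFE factors TFE3 and TFEB switch on lysosomal and autophagy genes. TFE3 was at 29.2, 32.01 and 31.2 CPM with DMSO, at 89.4, 92.1, 102 and 101 CPM with GTEA1 and at 32.7, 29.8, 31.2 and 29.4 CPM with GTEA7. GTEA1 libraries formed a group of their own and the DMSO and GTEA7 libraries overlapped. The TFE3 change was 1.64 ± 0.05 with GTEA1 (3.13-fold, adjusted p = 7.31e-32) and -0.001 with GTEA7 (95% interval -0.12 to 0.12). TFEB was scarce, with 2.70 to 4.89 CPM over all libraries and overlapping groups. Its changes were -0.20 ± 0.16 and 0.02 ± 0.15, neither called.

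Cathepsins, the proteases of the lysosome, moved in both directions with GTEA1. CTSL, a cysteine endopeptidase, showed the largest rise of any member, from 47.1, 49.6 and 50.9 CPM with DMSO to 271, 287, 288 and 291 CPM with GTEA1, and stood at 58.7, 65.4, 61.2 and 62.1 CPM with GTEA7. The 3 groups did not overlap. The log2 changes were 2.53 ± 0.04 (5.78-fold, adjusted p = 7.61e-44) with GTEA1 and 0.33 ± 0.05 (1.26-fold, adjusted p = 1.99e-07) with GTEA7. The pseudogenes CTSLP2 and CTSLP8 had at most 14 counts each over all libraries, as did ATG12P2 and GABARAPL3, copies of other members.

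CTSD, the main aspartic protease, rose from 19.4, 20.9 and 22.5 CPM to 33.7, 34.5, 35.2 and 35.5 CPM with GTEA1 (log2 0.74 ± 0.06). Of its exon bases, 54.9% are shared on the same strand with AC068580.4. CTSZ, an exopeptidase, went the other way, from 66.3, 69.4 and 67.7 CPM with DMSO to 56.2, 55.8, 59.9 and 54.6 CPM with GTEA1, and was at 69.2, 67.7, 68.5 and 68.3 CPM with GTEA7. All 4 GTEA1 libraries lay below all others, and CTSZ fell by 0.26 on the log2 scale (SE 0.04, adjusted p = 1.11e-06). CTSA, which protects neuraminidase and beta-galactosidase, fell by 0.17 (SE 0.05, adjusted p = 0.00192). CTSB was at 114 to 123 CPM with DMSO, 113 to 129 CPM with GTEA1 and 88.3 to 116 CPM with GTEA7, and neither change was called (0.06 and -0.23). Without GTEA7 replicate 2, the highest library of its group, the GTEA7 change of CTSB was -0.32 and was called (adjusted p = 2.11e-05), and with all libraries it was called by limma-voom (-0.24, adjusted p = 0.00534) and with no filter on low counts (-0.22, adjusted p = 0.0433).

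The glycosidases changed by at most 0.38 on the log2 scale with GTEA1. NEU1, the lysosomal sialidase, rose by 0.38 ± 0.08 (12.6 ± 0.68 to 16.3 ± 0.75 CPM) and GAA, which degrades glycogen, by 0.18 ± 0.04 (135 ± 2.63 to 153 ± 8.39 CPM). HEXA, a beta-hexosaminidase subunit, was not called (-0.22 ± 0.12), but was without GTEA1 replicate 2 (-0.28, adjusted p = 0.0416). GLA, alpha-galactosidase A, was at 21.97, 24.4 and 25.2 CPM with DMSO, at 21.9, 21.8, 22.5 and 20.04 CPM with GTEA1 and at 29.6, 31.1, 29.2 and 28.9 CPM with GTEA7. Values with GTEA7 were above all others and those with GTEA1 overlapped DMSO. GLA rose by 0.32 ± 0.06 with GTEA7 (adjusted p = 7.21e-05), the largest gap between the extracts among the glycosidases (0.47 ± 0.06 higher with GTEA7 than with GTEA1). Its fall with GTEA1 (-0.15 ± 0.07, adjusted p = 0.0427) was not called without DMSO replicate 2 or 3, without GTEA1 replicate 2 or 4, with DESeq2 or its size factors, with no filter on low counts, or with a replicate block (adjusted p = 0.0964).

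None of the 3 membrane proteins among the members rose with GTEA1, beside 35.6% of all tested genes. Of 21 other membrane and sorting genes, described below, 8 rose, LAMP3 and NPC1 among them, and 9 fell. LAMP1, the abundant glycoprotein that shields the lysosomal membrane, was at 194, 205 and 205 CPM with DMSO, at 177, 174, 174 and 171 CPM with GTEA1 and at 206, 203, 200.5 and 198 CPM with GTEA7. GTEA1 libraries were all lower and the other groups overlapped. LAMP1 fell by 0.21 on the log2 scale (SE 0.03, adjusted p = 6.64e-07). MCOLN1, the calcium channel TRPML1, had 7.46, 7.50 and 9.32 CPM with DMSO, 5.45, 5.14, 4.06 and 4.11 CPM with GTEA1 and 8.64, 7.78, 8.31 and 8.14 CPM with GTEA7. It fell by 0.79 (SE 0.12, adjusted p = 1.64e-07), the largest fall of any member, with no overlap between GTEA1 and the other groups. LAMP2, needed for fusion and chaperone-mediated autophagy, gave 0.07 with GTEA1 (95% interval -0.004 to 0.15) and 0.12 ± 0.04 with GTEA7 (adjusted p = 0.016). With GTEA1 the members holding TCACGTGA in the windows printed above stood at -0.79 (MCOLN1), -0.21 (LAMP1) and 0.18 (GAA). CTSA, whose window with that motif lies wholly in exons, stood at -0.17. Any part of the motif in these changes was not tested.

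Lysosomal genes are abundant in macrophages, and leukocyte and macrophage markers were near 0: the 9 markers summed to 1.84 to 2.28 CPM with DMSO, 2.505 to 2.91 CPM with GTEA1 and 1.90 to 2.48 CPM with GTEA7, with CD3E at 0 and 7 of 9 under 1 CPM in every library. The epithelial markers summed to 2234 to 2385, 2721 to 2850 and 2232 to 2329 CPM in the same order, although with GTEA1 4 of the 8 tested rose (KRT19, EPCAM, CDH17 and CDH1) and 4 fell (KRT8, KRT18, CDX2 and KRT20). Fibroblast markers summed to 53.9 to 55.4, 38.3 to 46.4 and 36.8 to 46.0 CPM, and endothelial markers to 2.53 to 3.45, 3.76 to 4.26 and 2.65 to 4.27 CPM. The part of these shifts in the members' changes was not tested.

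**Figure D3:**
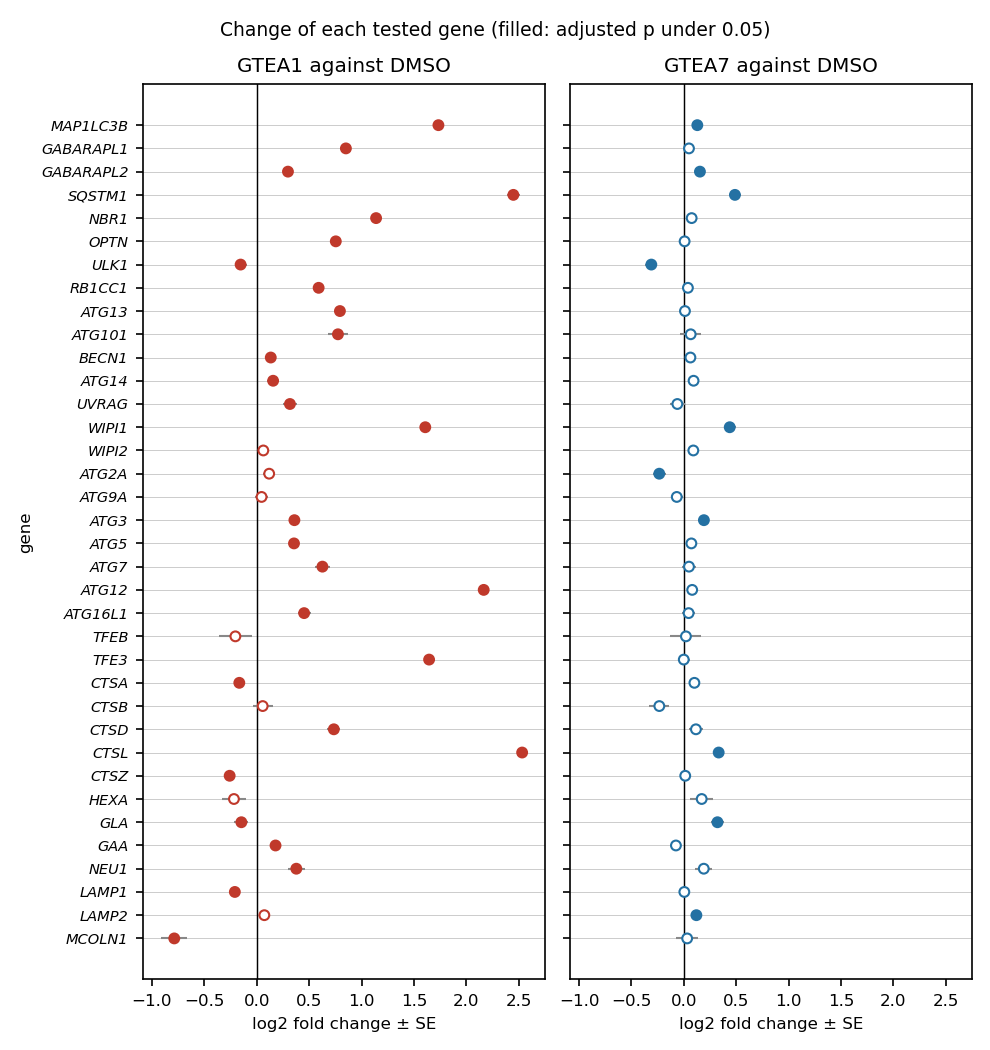
Log2 fold change with SE (x axis) of each tested gene (y axis) for GTEA1 against DMSO, left, and GTEA7 against DMSO, right, on the same scale; filled points have an adjusted p under 0.05. With GTEA1, values run from -0.79 for MCOLN1 to 2.53 for CTSL, and with GTEA7 from -0.31 for ULK1 to 0.49 for SQSTM1.

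Per kilobase of exon, levels can be compared between genes. In DMSO, LAMP1 ranked first at 74.6 ± 2.5 CPM per kilobase, followed by CTSZ at 45.3 ± 1.0, GAA at 37.0 ± 0.72 and MAP1LC3B at 31.8 ± 1.6. TFEB (0.91 ± 0.14) and HEXA (1.16 ± 0.08) were lowest among the tested members, and TFE3 stood at 9.02 ± 0.42. With GTEA1 the order at the top changed: SQSTM1 reached 153 ± 7.9, CTSL 120 ± 3.9, ATG12 119 ± 8.6 and MAP1LC3B 105 ± 3.3 CPM per kilobase, all above LAMP1 at 64.5 ± 0.94. CTSL and ATG12 did not differ beyond their spread. With GTEA7 LAMP1 stayed first at 74.8 ± 1.2, and SQSTM1 reached 39.3 ± 2.0. Lengths are GENCODE v29 exon unions, and the annotation used for counting is not given in the sources used here.

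Set directly against each other after the same 48 h, the extracts differed in 30 of 36 tested members. With GTEA7, 6 members were higher and 24 lower than with GTEA1, beside 36.2% and 36.4% of all tested genes, and the median log2 difference was -0.29 over the members and 0.0004 over all genes. All 19 autophagy members that differed were lower with GTEA7, although on library totals alone WIPI2 (0.14) and TFEB (0.33) were called higher with GTEA7. The differences ran from -2.20 ± 0.04 for CTSL, -2.09 ± 0.04 for ATG12 and -1.96 ± 0.05 for SQSTM1 to 0.82 ± 0.11 for MCOLN1. The 6 genes higher with GTEA7 were all lysosomal: MCOLN1, GLA (0.47 ± 0.06), HEXA (0.39 ± 0.11), CTSZ (0.27 ± 0.04), CTSA (0.27 ± 0.04) and LAMP1 (0.21 ± 0.03). No call was made for BECN1, ATG14, WIPI2, ATG9A, TFEB and LAMP2, whose 95% intervals reached from -0.22 for ATG9A to 0.52 for TFEB. Because this comparison and the GTEA1 comparison share the GTEA1 libraries, their values are not independent.

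Other genes of the pathway were described from lists outside the members, each to be read against the 35.6% of all tested genes higher and 36.2% lower with GTEA1, and the 12% and 10.4% with GTEA7. Of 21 other core autophagy genes tested, 13 rose (61.9%) and 2 fell (9.52%) with GTEA1 (median 0.21). TMEM41B and VMP1, scramblases of the endoplasmic reticulum that act early in autophagosome formation, rose by 1.53 ± 0.04 and 0.88 ± 0.04. PIK3C3, the lipid kinase of the BECN1 complex, fell by 0.29 (SE 0.04), and AMBRA1, a regulator of that complex, fell by 0.17 (SE 0.06). With GTEA7, 5 rose (TMEM41B 0.26, VMP1 0.16, PIK3R4 0.16, ATG9B 0.59 and SH3GLB1 0.11) and the protease gene ATG4B fell by 0.23 on the log2 scale.

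Of 19 other selective receptors, 8 rose and 8 fell with GTEA1 (42.1% each way, median -0.05), near the shares of 35.6% and 36.2% over all tested genes. TAX1BP1, a receptor for ubiquitinated cargo, rose by 1.06 ± 0.04 and BCL2L13, a mitochondrial receptor, by 0.998 ± 0.04. BNIP3 and BNIP3L, the hypoxia-inducible mitochondrial receptors, fell by 1.31 (SE 0.05) and by 0.92 (SE 0.04). With GTEA7, 4 rose (NCOA4 0.15, BCL2L13 0.16, TAX1BP1 0.13 and SEC62 0.10) and 3 fell (CALCOCO1 -0.33, BNIP3 -0.21 and BNIP3L -0.13).

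Genes of autophagosome-lysosome fusion were 5 higher and 5 lower of 15 with GTEA1 (33.3% each way, median 0.07), near the shares over all tested genes. Higher were PLEKHM1 (0.59), VPS39 (0.36), EPG5 (0.33), TECPR1 (0.30) and YKT6 (0.30), and lower were VPS18 (-0.61), VPS33A (-0.61), VPS41 (-0.29), VAMP8 (-0.28) and SNAP29 (-0.27). The tethering HOPS complex thus had members in both directions. With GTEA7 TECPR1 alone was called, lower at -0.21. Subunits of the vacuolar ATPase, the proton pump that acidifies the lysosome, were 6 higher (37.5%) and 9 lower (56.2%) of 16 with GTEA1 (median -0.21), against 35.6% and 36.2% of all tested genes, with ATP6V1F at 0.56 and ATP6V1E1 at 0.31 against ATP6V0D1 at -1.15 and ATP6V1C1 at -0.998. Their summed level was 1022 to 1024 CPM with DMSO, 882 to 926 CPM with GTEA1 and 1057 to 1089 CPM with GTEA7. With GTEA7 5 subunits rose, 31.2% against 12% of all tested genes (ATP6V0A2 0.20, ATP6V0B 0.19, ATP6V1G1 0.15, ATP6AP2 0.11 and ATP6V1A 0.11) and none passed the threshold downward. Scaled by library totals alone, the GTEA7 calls of ATP6V0B, ATP6V1G1, ATP6AP2 and ATP6V1A were lost.

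Other hydrolases and their cofactors were 9 higher (27.3%) and 13 lower (39.4%) of 33 with GTEA1 (median -0.09), near the 35.6% and 36.2% of all tested genes. PSAP, the precursor of the saposins, rose by 0.83 ± 0.03 and the acid nuclease DNASE2 by 0.90 ± 0.07, whereas CTSV, a close relative of CTSL, fell by 1.70 (SE 0.09) and the thioesterase PPT1 fell by 0.59 (SE 0.05). With GTEA7, 4 rose (LIPA 0.45, FUCA1 0.22, CTSC 0.17 and ASAH1 0.15) and 6 fell, with CTSV at -0.32 and GALNS at -0.28. Other membrane and sorting genes were 8 higher (38.1%) and 9 lower (42.9%) of 21 with GTEA1 (median -0.08), also near those shares. LAMP3 rose by 2.12 ± 0.09 and the cholesterol exporter NPC1 by 1.67 ± 0.05, and the sorting receptors SORT1 and IGF2R fell by 0.97 (SE 0.04) and by 0.49 (SE 0.04). With GTEA7, NPC1 (0.36), NPC2 (0.22), SLC17A5 (0.15), LAPTM4B (0.13) and LAPTM4A (0.12) rose and IGF2R fell by 0.11.

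Among 30 genes of mTORC1 and nutrient sensing, 14 rose (46.7%) and 6 fell (20%) with GTEA1 (median 0.10), against 35.6% and 36.2% of all tested genes. SESN2 and DDIT4, both inhibitors of mTORC1 signalling induced by stress, rose by 3.13 ± 0.08 and 2.14 ± 0.08, while SESN3 fell by 1.74 (SE 0.05) and FNIP2, a partner of folliculin, fell by 1.33 (SE 0.10). With GTEA7, DDIT4 went the opposite way, at -0.73 ± 0.10, and SESN3 fell by 0.32 (SE 0.04). In all, 6 of this list fell (20%) and 5 rose (16.7%) with GTEA7, against 10.4% and 12% of all tested genes: DEPTOR (0.46), RRAGC (0.31), RRAGD (0.24), LAMTOR5 (0.19) and RHEB (0.16).

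**Figure D4:**
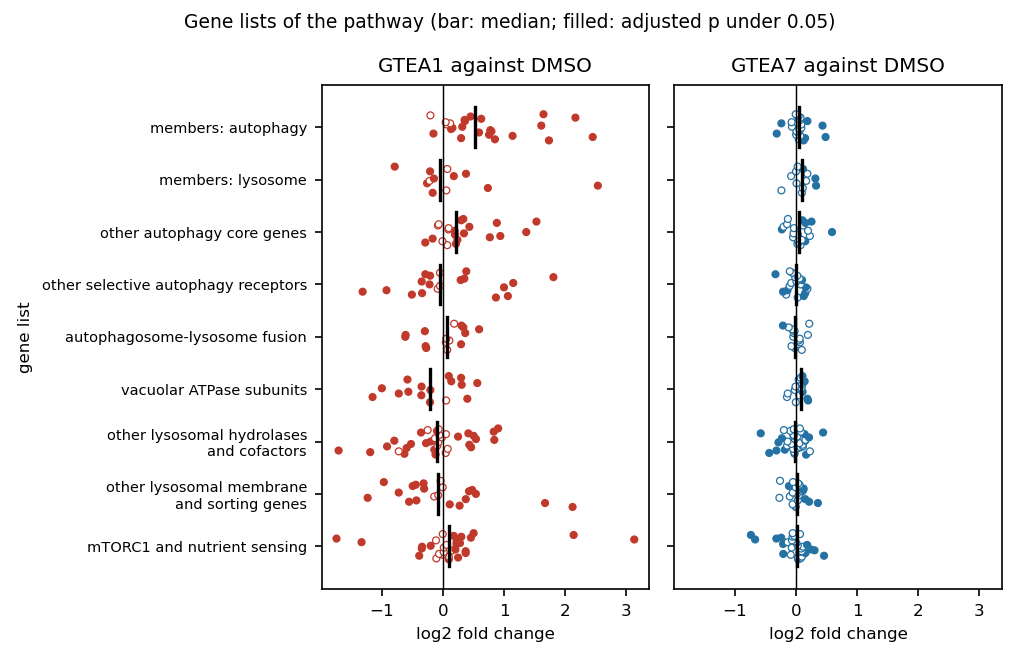
Log2 fold change (x axis) of every tested gene in 9 gene lists (y axis) for each extract against DMSO; bars are list medians and filled points have an adjusted p under 0.05. With GTEA1 the highest median is that of the autophagy members (0.52), and the vacuolar ATPase list has the lowest (-0.21), while with GTEA7 all medians lie near 0.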

How the data were processed

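Raw read counts per gene were used as deposited by the authors in 1 table of 61464 rows and 11 libraries. The submitters' processing notes name HTSeq 0.5.4, DESeq 1.10.1, STAR, GATK, SAMtools 0.1.18 and Picard, without saying what each did. Not given in the sources used here: build, annotation and strand setting. Rows without an Ensembl ID (840, with 0.727% of counts) were kept in library totals. Symbols came from a table of gene names, which matched 60370 IDs. Members were all named whatever their values. Of other genes, up to 2 called higher and 2 called lower with the smallest adjusted p were named per list, or every called gene where 5 or fewer were called. The members and lists were chosen with earlier results of these data known. One gene of the hydrolase list is not reported here.

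Genes were filtered with filterByExpr (17963 kept), scaled by TMM and fitted in 1 model of all groups with edgeR 4.0.16 (glmQLFit, robust, and glmQLFTest, R 4.3.3), with Benjamini-Hochberg adjustment. The scripts were tested on simulated counts. CPM used TMM-scaled library totals. Alternatives were DESeq2 1.42.0, limma-voom 3.58.1, other scalings, other filters, a fit of only the groups compared, a replicate block and leaving out each library. Totals of 13742326 to 19304211 counts set the precision, which falls for genes with few counts such as TFEB. No pair of libraries agreed within counting noise (chi-square per gene 1.39 to 4.1).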

Additional observations from a re-analysis of the deposited data

Results flagged for a closer look

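Each group of 4 libraries was searched for a library far from the rest by Dixon's test for all 37 genes (74 groups, of which chance picks out about 1 in 20). Library GTEA7 replicate 1 had UVRAG at 18.5 CPM, while the other 3 GTEA7 libraries lay between 16.4 and 16.7 CPM. Library GTEA7 replicate 3 had HEXA at 8.43 CPM, while the other 3 lay between 7.66 and 7.73 CPM. These are 2 of 74 groups.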

How the results depend on the processing

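Of 108 member results (36 genes in 3 comparisons), 84 were unchanged under all 19 alternatives and 24 changed under at least 1. Unchanged means the same side of the threshold, with no turn of sign in a change called in either fit. A turn of sign where neither fit made a call was not counted. Scaling by library totals alone had the widest effect: 10 members were lower with GTEA1 in place of 6, and 5 were higher with GTEA7 in place of 8. It moved the median of all genes to -0.167, -0.0597 and 0.109 (GTEA1 against DMSO, GTEA7 against DMSO, GTEA7 against GTEA1). Counting changes called in either fit, these GTEA1 changes turned sign under it: BECN1 (-0.02609), ATG14 (-0.003595), WIPI2 (-0.097), LAMP2 (-0.08674), ATP6V1G1 (-0.02223), ATP6AP2 (-0.06304) and ASAH1 (-0.1088). Leaving out each library in turn gave 5 to 8 members higher with GTEA7, with 5 without DMSO replicate 2. Among members, the GTEA7 calls of MAP1LC3B, GABARAPL2 and LAMP2 were each lost under at least 1 alternative. Of the other genes named, so were those of PIK3R4, ATG9B, SH3GLB1, TAX1BP1, BCL2L13, SEC62, BNIP3L, TECPR1 and IGF2R. The same held for ATP6V0B, ATP6V1G1, ATP6AP2, ATP6V1A, ASAH1, CTSC, NPC2, LAPTM4A, LAPTM4B, SLC17A5, RHEB, RRAGC and LAMTOR5. With a replicate block, 23 members rose and 5 fell with GTEA1, 8 rose and 2 fell with GTEA7, and 6 were higher and 24 lower with GTEA7 than with GTEA1, so that among members the block removed the GTEA1 call of GLA (-0.1245). Libraries that share a number did not deviate together (correlations -0.058 to 0.0365), so the numbers were not taken to pair them. Apart from the effect of the scaling itself, the cause was not tested. Low counts limit TFEB, HEXA and MCOLN1 most.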
